A study of Mus musculus with 20 samples.

Results

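Small RNA libraries of mouse testis were examined for miRNA seeds that differ by a shift of 1 base from the seed of a much more abundant family. The deposited small RNA table gives a count for each of 4940 seeds, the 7-base words that set a miRNA's targets. A parent was a row with at least 10000 counts over the 10 libraries, and a member was a row with at least 100 counts, fewer than its parent, whose letters overlap 6 letters of the parent when moved by 1 base in either direction. The rule found 141 member rows among the 4940, which form 151 pairs with 80 of 103 parents. Of the members, 9 had more than 1 parent, and 19 were themselves abundant enough to be parents.

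The libraries came from wild-type C57BL/6J mice. Whole testis was taken at day 1, day 3 and day 7 after birth, and leptotene/zygotene spermatocytes (mixed) and pachytene spermatocytes were separated by sedimentation from adults aged 70 to 80 days. Each of the 5 stages had 2 replicates for small RNA and 2 for RNA. The young testes hold somatic cells and early germ cells and no adult testis was included, so age, cell makeup and cell separation cannot be told apart when spermatocytes are set against whole testis. The labels name biological replicates but not the animals in each.

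A miRNA is cut from a hairpin by Drosha and then by Dicer, loaded into an Argonaute protein, and pairs with messenger RNAs mainly through bases 2 to 8 from its 5′ end, the seed. When the 5′ end starts a base later or earlier, the molecule, called a 5′ isomiR, carries another seed and may bind other targets. A shifted word can also simply be the seed of an unrelated miRNA. A table of seeds cannot separate these origins, because all reads with the same bases 2 to 8 fall into the same row.

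The sequences that the results turn on are given 5′ to 3′ as RefSeq lists them, with coordinates of build GRCm38.p6. The seed table itself carries no coordinates, and its submitters name build mm9. Capitals mark the 7 letters of the named row: the parent's seed, the member as it lies in the parent's miRNA, or the member as the seed of another miRNA. The first set holds shifts for which RefSeq lists no other miRNA with that seed: miR-10b-5p (chr2:74726074-74726096, plus strand), miR-411-5p (chr12:109710190-109710210, plus), miR-199a-3p (chr1:162217883-162217904, plus, and a second copy on chromosome 9), miR-409-3p (chr12:109743204-109743225, plus), miR-192-5p (chr19:6264857-6264877, plus) and miR-1839-5p (chr7:81529919-81529940, plus).
miR-10b-5p, parent ACCCUGU: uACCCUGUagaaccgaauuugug
miR-10b-5p, member CCCUGUA, starting 1 base later: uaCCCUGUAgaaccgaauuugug
miR-411-5p, parent AGUAGAC: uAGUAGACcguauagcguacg
miR-411-5p, member UAGUAGA, starting 1 base earlier: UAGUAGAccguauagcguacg
miR-411-5p, member GUAGACC, starting 1 base later: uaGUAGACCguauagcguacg
miR-199a-3p, parent CAGUAGU: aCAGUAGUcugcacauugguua
miR-199a-3p, member ACAGUAG, starting 1 base earlier: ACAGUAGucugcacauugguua
miR-199a-3p, member AGUAGUC, starting 1 base later: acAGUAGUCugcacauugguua
miR-409-3p, parent AAUGUUG: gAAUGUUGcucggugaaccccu
miR-409-3p, member GAAUGUU, starting 1 base earlier: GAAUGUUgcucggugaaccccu
miR-409-3p, member AUGUUGC, starting 1 base later: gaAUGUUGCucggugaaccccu
miR-192-5p, parent UGACCUA: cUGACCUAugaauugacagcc
miR-192-5p, member GACCUAU, starting 1 base later: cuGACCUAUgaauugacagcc
miR-1839-5p, parent AGGUAGA: aAGGUAGAuagaacaggucuug
miR-1839-5p, member GGUAGAU, starting 1 base later: aaGGUAGAUagaacaggucuug

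The second set shows words that another miRNA also has as its seed, beside the abundant family they resemble. The examples are let-7a-5p (chr13:48538239-48538260, minus) beside miR-1839-5p and miR-196a-5p (chr11:96265187-96265208, plus), miR-27b-3p (chr13:63300760-63300780, plus) beside miR-128-3p (chr1:128202404-128202424, plus), miR-148a-3p (chr6:51269829-51269850, minus) beside miR-130a-3p (chr2:84741116-84741137, minus), and miR-16-5p (chr3:69009918-69009939, plus) beside miR-103-3p (chr2:131288103-131288125, plus).
let-7a-5p, parent GAGGUAG: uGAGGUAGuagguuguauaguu
let-7a-5p, member AGGUAGU, starting 1 base later: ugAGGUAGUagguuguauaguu
miR-196a-5p, member AGGUAGU as its own seed: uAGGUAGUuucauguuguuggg
miR-1839-5p, member AGGUAGA of the let-7 row, as its own seed: aAGGUAGAuagaacaggucuug
miR-27b-3p, parent UCACAGU: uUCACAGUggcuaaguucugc
miR-27b-3p, member CACAGUG, starting 1 base later: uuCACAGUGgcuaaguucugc
miR-128-3p, member CACAGUG as its own seed: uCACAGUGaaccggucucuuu
miR-148a-3p, parent CAGUGCA: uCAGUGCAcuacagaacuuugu
miR-130a-3p, member AGUGCAA as its own seed: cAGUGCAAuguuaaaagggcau
miR-16-5p, parent AGCAGCA: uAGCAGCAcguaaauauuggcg
miR-103-3p, member GCAGCAU as its own seed: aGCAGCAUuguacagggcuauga

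The pairs were sorted by what RefSeq's mature miRNAs allow. In 76 pairs the member was a shifted read of a miRNA of the parent's family and the seed of no other listed miRNA. In 16 pairs it was both such a shift and another miRNA's seed, and in 20 it was another miRNA's seed alone, with a free base that no miRNA of the parent's family carries. In 8 pairs neither held, and in 31 the parent matched no mature miRNA of the table. RefSeq seeds matched 83 of the 103 parents, and 41 of the 141 members were the seed of a listed miRNA.

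Most pairs had a small member. Counts of a member per 100 counts of its parent, summed over the libraries, had a median of 1.25 and ran from 0.00984 to 95.9. There were 4 pairs at 50 or more, 27 at 10 or more and 83 at 1 or more. These totals are what the rule selected on and are given as a description. The member rows held 8.23% of all counts in the table, and 3.29% to 10.1% of each library. At the edge of the rule, the smallest members had 105 and 107 counts, and the largest shifted rows left out were GGUAGUA beside AGGUAGU with 94 and CAGUGUU beside CCAGUGU with 92.

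Words that start 1 base later and words that start 1 base earlier were similarly common. The member lay on the later side in 85 pairs and on the earlier side in 66, of which 48 and 44 could be shifted reads of a listed miRNA of the parent. Among the 83 parents with a RefSeq miRNA, leaving out words that are another miRNA's seed, 37 of 82 words that start 1 base later reached 100 counts (45.1%), with a median of 0.123 per 100 parent counts. For words that start 1 base earlier it was 39 of 83 (47.0%), with a median of 0.122. Of 59 parents with both words and no other miRNA's seed among them, the later start was higher in 29 and the earlier start in 29.

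Words further from the parent's start were scarcer. At 2 bases later 17 of 97 words reached 100 counts (17.5%), with a median of 0.0111 per 100, and at 3 bases later 9 of 120 (7.50%). At 2 bases earlier it was 6 of 105 (5.71%). Words that moved by 1 base but had a free letter that the miRNA does not carry reached 100 counts in 2 of 200 cases on the earlier side and 7 of 206 on the later side. Single-letter substitutions of the parent reached it in 37 of 1541 cases (2.40%). These shares are not a measure of sequencing error, since 99.5% of the rows of the table occur within RefSeq hairpins, against 88.5% of all 16384 possible words.

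The arm of the hairpin gave a difference that was described and not tested. The miRNA's 5p arm begins at a Drosha cut and its 3p arm at a Dicer cut. Among 30 parents from 5p arms with both words, the later start was higher in 18 and the earlier in 11. Among 23 parents from 3p arms it was 10 and 13. The earlier start had a median of 0.303 per 100 on 3p arms (n = 30 words) and 0.0324 on 5p arms (n = 37), while the later start had 0.186 (n = 28) and 0.141 (n = 36).

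Depth differed strongly between libraries and limits every statement about spermatocytes. Total counts were 1421742 to 11061273 in the 6 testis libraries, 820461 and 119746 in the leptotene/zygotene libraries, and 338443 and 112967 in the pachytene libraries. Of the parents, 1 had fewer than 100 counts in each testis library, against 31 and 58 in the leptotene/zygotene and 41 and 59 in the pachytene libraries. The members at 0 counts numbered 2 to 6 in testis libraries and 15 to 55 in spermatocyte libraries. The RNA libraries were checked with marker genes: the 3 Sertoli cell markers Amh, Sox9 and Wt1 summed to 893 to 1571 CPM (counts scaled to the size of the library) in testis and 3.31 to 35.6 in spermatocytes, none of the 3 being at 0 in all 4 spermatocyte libraries. The 3 Leydig cell markers fell in the same way, from 271 to 698 down to 3.91 to 29.7 CPM. Of the germ cell markers, Ddx4 had 22.3 to 109 CPM in testis and 800.2 to 1055 in spermatocytes, while Dazl had 292 and 271 at day 7, 47.6 to 98.3 in the other testis libraries and 35.5 to 149 in spermatocytes. The 3 meiotic markers Sycp1, Sycp3 and Stra8 summed to 8.56 to 108 CPM in testis, 102 and 172 in the leptotene/zygotene and 194 and 400.1 in the pachytene libraries. Among them Stra8 was highest at day 7, with 52.1 and 37.6 CPM. It had 1.36 to 3.26 in the other testis libraries and 3.99 to 7.78 in spermatocytes. The 3 spermatid genes Prm1, Prm2 and Tnp1, which belong to a later stage than either fraction, summed to 0.167 to 17.8 CPM in testis, 34310 and 40736 in the leptotene/zygotene libraries and 2642 to 4186 in the pachytene libraries. All 3 were thus higher in the earlier fraction, which goes against the labelled order of stages, and their part in the small RNA results was not tested. The 2 red blood cell markers listed, Hbb-b1 and Hba-a1, were not measured here.

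The question put to each pair was whether the member kept a constant proportion to its parent across stages. The ratio is taken within a library, so library size cancels. It was tested with edgeR's quasi-likelihood test on member and parent counts together, over all 388 pairs of rows shifted by 1 base whose lower row had at least 100 counts. Benjamini-Hochberg adjusted p-values under 0.05 were called. A log2 value below is the change of the ratio with its standard error.

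The largest member was CCCUGUA, the miR-10 read that starts 1 base later, with 2038604 counts against 10750374 of ACCCUGU. The miR-10 family lies within Hox gene clusters, and its parent row was the largest of the table. CCCUGUA per 100 counts of ACCCUGU was 17.6 and 18.5 (day 1), 21.1 and 18.0 (day 3), 17.5 and 17.5 (day 7), 16.1 and 15.1 (leptotene/zygotene) and 15.8 and 14.6 (pachytene). The 4 spermatocyte libraries lay just below the 6 testis libraries, but the difference did not pass the test (log2 change -0.25 ± 0.15, edgeR adjusted p = 0.278). The level of both rows fell: on the log2 CPM scale CCCUGUA changed by -1.83 ± 0.54 (edgeR adjusted p = 0.00893) and ACCCUGU by -1.61 ± 0.50 (adjusted p = 0.0125) in spermatocytes against testis, where the median row tested changed by -0.997. Lower levels in such bulk samples can come from fewer cells of a type or less RNA per cell, which cannot be told apart.

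Several other shifts also showed similar ratios at every stage. For miR-199-3p, a family abundant in mesenchymal cells, the earlier start ACAGUAG was 19.0 and 16.9 per 100 (day 1), 13.4 and 14.8 (day 3), and 14.2 and 14.1 (day 7). It was 11.9 and 20.9 (leptotene/zygotene) and 14.9 and 18.8 (pachytene), where the parent had only 64 to 792 counts (log2 change in spermatocytes -0.03 ± 0.21, edgeR adjusted p = 1). The later start AGUAGUC was 10.1 to 13.4 in testis and 7.79 to 28.1 in spermatocytes, the highest value being 18 counts of 64. The groups overlapped for both words.

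ACGGAAU, the later start of miR-191-5p, had 1.94 to 2.35 per 100 counts of AACGGAA in the 6 testis libraries and 1.93 to 2.57 in the 4 spermatocyte libraries (log2 change 0.04 ± 0.16, edgeR adjusted p = 0.973). The parent had 487855 counts in all. UAAACAU beside GUAAACA of miR-30, a word that is also the seed of miR-30f, had 0.783 to 0.974 in testis and 0.673 to 1.02 in spermatocytes (log2 change 0.07 ± 0.18, adjusted p = 0.92). GUACCGU of miR-126a-3p, a miRNA of endothelial cells, had 24.96 to 29.97 in testis, and AGCUCGG of miR-423-3p had 12.0 to 14.2. In spermatocytes they had 21.4 to 70.8 and 11.8 to 24.1, with the top values from parents of 24 and 54 counts.

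Members nearly as large as their parent included cases with steady ratios. GAUCAGG, the earlier start of miR-465a-3p and its copies on the X chromosome and also the seed of a miR-465 relative, had 114 and 89.3 per 100 counts of AUCAGGG (day 1), 101 and 95.9 (day 3), 91.4 and 91.0 (day 7), 87.7 and 69.8 (leptotene/zygotene) and 89.3 and 70.7 (pachytene). The spermatocyte values lay just below the testis values without passing the test (log2 change -0.28 ± 0.17, edgeR adjusted p = 0.271). ACAGUAC beside UACAGUA of miR-101b-3p is also the seed of miR-101a-3p, and had 47.6 to 60.7 in testis and 56.6 to 91.1 in spermatocytes (adjusted p = 0.294). The miR-214-3p word ACAGCAG, the earlier start of CAGCAGG, had 51.6 to 94.2 in testis. Its parent had only 1 to 20 counts in the spermatocyte libraries, which give no usable ratio.

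Further large members without a call were GCUCGAC of miR-434-5p, with 15.2 to 30.6 per 100 counts of CUCGACU in testis and parents of only 2 to 39 counts in spermatocytes, AAACAUG of miR-322-3p, with 17.9 to 31.3 in testis, and CCUGAGA of miR-125, with 1.13 to 4.49 in testis and 1.92 to 6.96 in spermatocytes. The last of these varied as much between replicates as between stages, with 1.56 and 4.49 in the day 3 pair. UGGCACU, the later start of miR-183-5p, a miRNA of sensory organs, had 51.2 and 53.8 (day 1), 49.98 and 39.97 (day 3), and 26.6 and 25.6 (day 7). Day 1 and day 7 did not overlap, but the change of -1.01 ± 0.31 just missed the threshold (edgeR adjusted p = 0.0502).

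Between whole testis at day 1 and day 7, 15 of the 151 member ratios were called, 9 higher and 6 lower. Among all 388 pairs the called share was 11.3% (6.96% higher, 4.38% lower), so the members were called about as often as the background. The median log2 change of the members was 0.02 and that of all pairs -0.03. Each of the 15 calls was lost without at least 1 of the libraries. The count was 0 without day 7 replicate 2, 4 without day 1 replicate 2, 5 without day 7 replicate 1 and 8 without day 1 replicate 1. Another fit, limma on log2 ratios, called 2 members, and a fit on day 1 and day 7 alone called 45.

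A ratio that fell over the first week was that of GCAGCAU beside AGCAGCA. Here GCAGCAU is the seed of miR-103 and miR-107, which act on lipid and insulin metabolism, and AGCAGCA that of the miR-15/16 family, which restrains the cell cycle. GCAGCAU per 100 counts of AGCAGCA was 45.9 and 51.5 (day 1), 26.1 and 14.8 (day 3), 12.3 and 11.7 (day 7), 6.41 and 5.53 (leptotene/zygotene) and 8.56 and 9.50 (pachytene). Every later library was below both day 1 libraries, and the change from day 1 to day 7 was -2.02 ± 0.28 (edgeR adjusted p = 0.00148), lost without day 7 replicate 2. At the row level the parent rose from day 1 to day 7 by 1.59 ± 0.44 (edgeR adjusted p = 0.0359), while GCAGCAU changed by -0.43 ± 0.41 (adjusted p = 0.523).

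GGUUACC beside AGGUUAC was another such pair. In RefSeq the member is the seed of miR-409-5p, of the imprinted miRNA cluster on chromosome 12, and the parent that of miR-872-5p. GGUUACC had 50 and 63.6 per 100 (day 1), 56.7 and 133 (day 3), 12.3 and 9.89 (day 7), and 1.96 to 5.29 in the 4 spermatocyte libraries. Day 7 was below day 1 (log2 change -2.36 ± 0.38, edgeR adjusted p = 0.00151), a call lost without day 7 replicate 2. In the other direction, AUAAAGU, the seed of miR-142a-5p of blood cells, rose beside UAUAAAG of miR-340-5p, from 1.55 and 1.94 at day 1 to 8.01 and 8.54 at day 7 (2.26 ± 0.34, adjusted p = 0.00151), a call that was also lost without day 7 replicate 2.

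Of the 76 pairs that were shifts of the parent only, 4 were called between day 1 and day 7. GACCUAU, the later start of miR-192/215, had 7.26 and 6.86 per 100 counts of UGACCUA (day 1), 21.1 and 19.5 (day 3), 20.2 and 20.4 (day 7), 14.3 and 6.96 (leptotene/zygotene) and 13.6 and 5.59 (pachytene). Day 1 lay apart from the other testis libraries, and the rise to day 7 was 1.53 ± 0.39 (edgeR adjusted p = 0.0257). In each spermatocyte stage the second and shallower replicate was the lower.
GGUAGAU of miR-1839-5p rose from 43.0 and 42.6 to 84.1 and 90.1 (1.02 ± 0.30, adjusted p = 0.0407). GGAUCCG of miR-127-3p, an imprinted miRNA whose parent row was the second largest, fell from 0.131 and 0.134 to 0.0669 and 0.0673 (-0.98 ± 0.27, adjusted p = 0.0393). UCCAUUU of miR-136-5p fell by 2.21 ± 0.65 (adjusted p = 0.0462), on 6 and 2 counts at day 1. All 4 calls were lost when either replicate of day 1 or day 7 was left out.

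A further 2 changes involved rows of low count or of a seed that is itself a shift. CACAUUA beside UCACAUU of miR-23a-3p fell from 10.7 and 6.95 per 100 at day 1 to 1.05 and 0.846 at day 7 (-3.20 ± 0.52, edgeR adjusted p = 0.00151), on 33 and 41 counts against 17 and 41. CACAUUA is a word that miR-23a-3p does not carry and that no other listed miRNA has as its seed. For CACAUUG beside the same parent the change was -0.19 ± 0.46, without a call (edgeR adjusted p = 0.9). AACAGCA beside ACAGCAG, the shifted miR-214-3p row, rose from 3.21 and 1.71 to 13.4 and 27.1 (3.10 ± 0.58, adjusted p = 0.00445). The first call was lost without day 7 replicate 2, and the second also without day 1 replicate 2.

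Spermatocytes differed from whole testis in far more ratios. Of the 151 member ratios, 46 were called, 22 higher and 24 lower in spermatocytes, beside 28.6% of all 388 pairs (16.5% higher, 12.1% lower). The rule itself set the direction of UCUCCAU beside CUCCAUU and of GGUAGAC beside AGGUAGA, as given below. Some other pairs met a minimum only with spermatocyte counts. ACUGGCA beside GACUGGC had 78 counts in testis and 74 in spermatocytes. A further member had 1 and 116, so the rule favoured its rise. In others, such as ACUCCAU beside CUCCAUU, the parent was the larger row only through testis. The tally, here and by kind of pair, includes such pairs and is a description. The median log2 change was -0.20 for members and -0.06 for all pairs. The testis and spermatocyte ratios did not overlap in 57 of the 151 member pairs (37.7%). Leaving out each library in turn gave 37 to 48 calls, and 30 of the 46 were kept in all 10 of these fits. By limma on log2 ratios the split was 44 higher and 20 lower.

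The kinds of pair were called in unequal numbers, given here without a test between kinds. Of the 20 members that are another miRNA's seed only, 14 were called (70.0%), 7 in each direction, with a median absolute log2 change of 2. Of the 76 shifts of the parent only, 13 were called (17.1%), 4 higher and 9 lower, with a median absolute change of 0.69. The 16 pairs of both kinds had 6 calls, the 8 of neither kind 6 and the 31 with an unmatched parent 7. Within whole testis, where depth is ample, the highest library over the lowest had a median of 1.43-fold for 25 pairs that were shifts only and 2.50-fold for 11 that were another seed only, among pairs with at least 30 parent counts in every library and 1000 member counts.

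Among the 20 members that are another miRNA's seed only, the largest called rise in proportion was that of AGGUAGA beside GAGGUAG of let-7. The let-7 family rises with differentiation in many tissues, and AGGUAGA is the seed of miR-1839-5p. Per 100 let-7 counts it had 0.558 and 0.749 (day 1), 0.427 and 0.383 (day 3), 0.391 and 0.388 (day 7), 13.3 and 25 (leptotene/zygotene) and 44.5 and 19.5 (pachytene). All spermatocyte libraries were far above all testis libraries (log2 change 5.64 ± 0.27, edgeR adjusted p = 2.56e-09). The row AGGUAGA rose by 3.88 ± 0.32 in log2 CPM (edgeR adjusted p = 8e-07) while the let-7 row fell by 1.81 ± 0.27 (adjusted p = 8.34e-05).

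AGGUAGA was also a parent, and its own shift moved the opposite way. GGUAGAU, the later start of miR-1839-5p, had 43.0 and 42.6 per 100 counts of AGGUAGA (day 1), 75.9 and 80.3 (day 3), and 84.1 and 90.1 (day 7). In spermatocytes it had 2.17 and 1.11, then 0.567 and 1.57 (log2 change -5.79 ± 0.25, edgeR adjusted p = 1.16e-09). The testis and spermatocyte libraries did not overlap. The level of the row GGUAGAU changed by -1.91 ± 0.28 (edgeR adjusted p = 8.28e-05), against 3.88 for its parent. AGGUAGA met the minimum for a parent only with its spermatocyte counts (6422 counts in testis and 5170 in the shallower spermatocyte libraries). The selection thus favoured a lower ratio of GGUAGAU to AGGUAGA in spermatocytes. The size of this fall is given as a description, and no conclusion about plain shifts is drawn from it.
GGUAGAC beside AGGUAGA, the seed of miR-379-5p from the chromosome 12 cluster, had 49.2 to 369 in testis, 1.01 and 0.284 in the first replicate of each spermatocyte stage and 0 in the second of each (-8.11 ± 0.39, adjusted p = 2.78e-09). In testis this member had 11093 counts, more than the 6422 of its parent. It had fewer counts than its parent in all only through spermatocytes (26 against 5170). The direction of the pooled ratio was thus set by the selection, and this call is no finding.

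Other pairs in which the member is a family of its own changed less. AGUGCAA, the seed of the family of miR-130 and its relatives, rose beside CAGUGCA of miR-148/152 from 6.99 to 10.4 per 100 in testis to 23.3, 14.1, 19.9 and 16.5 in the 4 spermatocyte libraries (log2 change 1.17 ± 0.18, edgeR adjusted p = 0.000176). GUGCAAA, the seed of miR-19, a member of the growth-promoting miR-17/92 cluster, rose beside AGUGCAA from 17.7 to 24.0 in testis to 85.9, 61.7, 108 and 63.4 (1.98 ± 0.19, adjusted p = 1.7e-06). The groups did not overlap in either pair. In row levels AGUGCAA fell by 1.00 ± 0.27 (edgeR adjusted p = 0.00576), less than the fall of 2.16 ± 0.28 in CAGUGCA (adjusted p = 3.16e-05), and GUGCAAA rose by 0.98 ± 0.28 (adjusted p = 0.00742).
GCAGCAU of miR-103/107 was lower beside AGCAGCA in spermatocytes (-1.62 ± 0.19, edgeR adjusted p = 1.16e-05), and so was GGUUACC beside AGGUUAC (-3.65 ± 0.34, adjusted p = 1.66e-06). ACUGGCC, the seed of miR-193, beside GACUGGC of miR-871-3p had 1.29 to 3.14 in testis and 0.0401 to 0.164 in spermatocytes (-4.06 ± 0.27, adjusted p = 6.54e-08). Mean levels of the row ACUGGCC were 33.0, 65.9 and 117 CPM at day 1, 3 and 7, 59.5 in leptotene/zygotene and 65.4 in pachytene. For the parent GACUGGC they were 1168, 2829, 8021, 45694 and 55668, so the lower ratio went with a higher parent.

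Members that are both a shift and another miRNA's seed moved in both directions. CACAGUG, a later start of miR-27 and the seed of the brain-rich miR-128, had 1.73 and 1.37 per 100 counts of UCACAGU (day 1), 0.786 and 0.787 (day 3), 1.37 and 1.09 (day 7), 5.34 and 8.63 (leptotene/zygotene) and 8.15 and 10.7 (pachytene). The spermatocyte libraries were all above the testis libraries (log2 change 2.78 ± 0.19, edgeR adjusted p = 9.54e-08). The row CACAGUG rose by 0.97 ± 0.27 (edgeR adjusted p = 0.00583) while UCACAGU fell by 1.77 ± 0.33 (adjusted p = 0.00042).
AGGUAGU, a later start of let-7 and the seed of miR-196, which targets Hox genes, went from 0.767 to 1.52 in testis to 0.182, 0.0397, 0.274 and 0.175 (-2.37 ± 0.31, edgeR adjusted p = 3.22e-05). AAGUGCU, a later start of miR-17 and the seed of the embryonic stem cell families miR-291a/294/295 and miR-302, had 6.15 and 11.9 (day 1), 6.33 and 4.36 (day 3), 2.92 and 2.56 (day 7) and 0.256 to 1.82 in spermatocytes. It fell both from day 1 to day 7 (-1.67 ± 0.35, adjusted p = 0.00664) and in spermatocytes (-2.39 ± 0.35, adjusted p = 8.25e-05), the first call being lost without day 1 replicate 2 or either day 7 library.

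In some called pairs the parent or the member was nearly absent from spermatocytes. CUCCAUU of miR-136-5p had 45, 5, 7 and 2 counts in the 4 spermatocyte libraries, where ACUCCAU, its earlier start and also the seed of miR-880-3p, had 286, 36, 74 and 40. In testis ACUCCAU had 1.62 to 5.13 per 100 (log2 change 8.18 ± 0.31, edgeR adjusted p = 4.12e-10). CUCCAUU was larger than ACUCCAU in all only through testis (23833 against 750 counts, and 59 against 436 in spermatocytes). The selection thus favoured a rise of this ratio, and its size is given as a description. ACUCCAU, as a row, rose by 4.14 ± 0.29 and CUCCAUU fell by 4.05 ± 0.45. UCUCCAU, a word beside CUCCAUU that miR-136-5p does not carry, had 0 counts in all 6 testis libraries and 51, 11, 98 and 17 in spermatocytes. It met the minimum for a member through spermatocytes alone, and its parent (23833 counts in testis, 59 in spermatocytes) met its own through testis alone. The direction of this ratio between testis and spermatocytes was thus set by the selection, and its call among the 46 is no finding.
UACAGUA beside ACAGUAG, the shifted miR-199-3p row, is the seed of miR-101b-3p and had 22.7 to 71.4 per 100 in testis and 330 to 805 in spermatocytes (3.88 ± 0.29, edgeR adjusted p = 1.76e-07), where ACAGUAG had 12 to 94 counts. ACAGUAG was the larger row in all only through testis (68103 against 27862 counts, and 143 against 967 in spermatocytes). The selection favoured this rise too, and its size is a description. AAUUUAG beside AUUUAGA of miR-465-5p had 0.0695 to 0.865 in testis. It had 0.112 in leptotene/zygotene replicate 1 and 0 in the other 3 spermatocyte libraries, a call (adjusted p = 0.00996) lost without pachytene replicate 1 or day 1 replicate 1. AAACAUG, named above with miR-322-3p, had 17.9 to 47.6 beside UAAACAU of miR-30f in testis and 0 to 3.48 in spermatocytes (-4.22 ± 0.48, adjusted p = 1.08e-05). AAACAUC beside the same parent went the other way, with 6.51 to 8.25 in testis and 9.54 to 21.3 in spermatocytes. The fall of AAACAUG is thus not read as a loss of a miR-30f shift.

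Shifts of the parent only were called 13 times in spermatocytes, among them the earlier and the later starts of miR-411-5p and miR-409-3p. Both miRNAs come from the imprinted cluster on chromosome 12. In RefSeq AGUAGAC is the seed of miR-7229-5p as well as of miR-411-5p. The row does not separate their counts, and the part of miR-7229-5p in these ratios was not tested. UAGUAGA, the earlier start of miR-411-5p, had 40.8 and 40.9 per 100 counts of AGUAGAC (day 1), 40.7 and 38.2 (day 3), 39.4 and 38.3 (day 7), 26.9 and 11.9 (leptotene/zygotene) and 2.57 and 5.97 (pachytene). The 6 testis values lay between 38.2 and 40.9, and every spermatocyte value was below them (log2 change -2.18 ± 0.25, edgeR adjusted p = 1.29e-05). As rows, UAGUAGA fell by 5.95 ± 0.40 (edgeR adjusted p = 2.06e-07) and AGUAGAC by 3.79 ± 0.29 (adjusted p = 4.63e-07). GUAGACC, the later start, had 0.413 to 0.652 in testis and 1 count against 1590 parent counts in spermatocytes. That is 0.106 times the testis ratio, with an exact 95% interval of 0.00268 to 0.592 that covers counting error only, and the call was lost without pachytene replicate 1. GUAGACC can also be read from miR-1193-5p, beside whose row GGUAGAC it had 17.0 to 42.9 in testis.

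For miR-409-3p the ends moved apart. GAAUGUU, the earlier start, had 30.7 and 30.7 per 100 counts of AAUGUUG (day 1), 41.7 and 35.3 (day 3), 25.5 and 28.2 (day 7), 40.6 and 113 (leptotene/zygotene) and 157 and 108 (pachytene). The later start AUGUUGC had 23.4 to 28.3 in testis, 7.25 and 20 (leptotene/zygotene) and 8.11 and 5.41 (pachytene). GAAUGUU rose (log2 change 1.47 ± 0.27, edgeR adjusted p = 0.000594) and AUGUUGC fell (-1.71 ± 0.36, adjusted p = 0.00215). The parent had 69, 15, 37 and 37 counts in these 4 libraries and AUGUUGC 5, 3, 3 and 2, and the fall was lost without leptotene/zygotene replicate 1.

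The remaining called shifts were smaller or rested on few counts. UUGCACU, the later start of miR-25/92, had 0.370 to 0.558 per 100 counts of AUUGCAC in testis and 0.112 to 0.261 in spermatocytes (log2 change -1.43 ± 0.24, edgeR adjusted p = 0.00027). UUCAGUC, the later start of miR-30a-3p and miR-30e-3p, had 8.49 to 11.7 in testis and 4.50 to 7.91 in spermatocytes (-0.59 ± 0.20, adjusted p = 0.0419), a call lost in 7 of the 10 fits that left out a library. CAGCAGC beside AGCAGCA, read from miR-322-5p and miR-497a-5p, had 0.237 to 0.424 in testis and 0 to 0.0606 in spermatocytes (-3.14 ± 0.46, adjusted p = 8.25e-05). AGCAGCA is also the seed of miR-15, miR-16 and others, and the row does not separate their shares. GGAUCCG of miR-127-3p had 0 counts in all 4 spermatocyte libraries, where a floor of 3 counts over the group is above the testis ratio, so a fall was not detectable at this depth.

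Between leptotene/zygotene and pachytene spermatocytes 3 member ratios were called, 1 higher and 2 lower, beside 0.773% of all 388 pairs (0.258% higher, 0.515% lower). At an unadjusted p under 0.05 there were 14 members and 26 pairs. By limma no member was called (0 of 151). UAGUAGA beside AGUAGAC fell by 2.46 ± 0.45 (edgeR adjusted p = 0.0422), from 139 and 17 member counts against 517 and 143 of the parent to 17 and 16 against 662 and 268. CCUGUAC beside CCCUGUA had 9.46 and 90.5 per 100 in leptotene/zygotene and 1.08 and 2.56 in pachytene libraries (-4.32 ± 0.88, adjusted p = 0.0485), against 1.62 to 3.99 in testis. Leptotene/zygotene replicate 2 stood far from all other libraries here, with 1412 counts beside 1561 of CCCUGUA. The word UCUCCAU beside CUCCAUU changed by 3.23 ± 0.61 (adjusted p = 0.0485), on 51 and 11 against 98 and 17 member counts and a parent of 45 and 5 against only 7 and 2. All 3 calls were lost when single libraries were left out: 0 member ratios were called without either day 1 or either day 7 library, 1 without leptotene/zygotene replicate 1 or either pachytene library, and 4 without leptotene/zygotene replicate 2.

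The levels of the member rows were tested with edgeR over the 745 rows that passed the filter on low counts, 132 of the 141 members among them. From day 1 to day 7, 22 members were called, 14 higher and 8 lower, beside 14.0% of all rows (8.32% higher, 5.64% lower), and with median-ratio size factors the split was 10 higher and 21 lower. In spermatocytes 94 were called, 26 higher and 68 lower, beside 72.8% of all rows (27.9% higher, 44.8% lower), with a median log2 change of -1.30 for members and -0.997 for all rows. Between pachytene and leptotene/zygotene 1 member fell, CCUGUAC (-4.51 ± 0.73, edgeR adjusted p = 0.0244), beside 0.403% of rows (0.134% higher, 0.268% lower). The day 1 to day 7 count went to 0 without day 1 replicate 2 or day 7 replicate 1, 2 without day 7 replicate 2 and 9 without day 1 replicate 1, and to 36 without leptotene/zygotene replicate 1 and 33 without leptotene/zygotene replicate 2. The pachytene count went to 0 without pachytene replicate 1.

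Templated shifts came from miRNAs on many chromosomes of GRCm38.p6. The X chromosome gave 19 and chromosome 12 gave 18 of them, a pair being counted on each chromosome that holds a copy. Their median ratios were 0.582 and 2.04 per 100. On chromosome 1 there were 16, with a median of 0.359, and on chromosome 11 there were 15, with 0.338.

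The genes that cut and load miRNAs were read from the RNA libraries, as 13 listed genes in a table where 16872 genes were tested by edgeR. From day 1 to day 7 none of the 13 was called (0, and 0 at an unadjusted p under 0.05, by DESeq2 also 0), beside 3.36% of all genes (1.08% higher, 2.28% lower). In spermatocytes 12 were called, 5 higher and 7 lower, beside 85.3% of all genes (39.7% higher, 45.6% lower), so most genes changed in this comparison. Drosha, which cuts the hairpin from its precursor, had 79.5 and 87.6 CPM (day 1), 62.3 and 92.7 (day 3), 132 and 121 (day 7), 21.4 and 44.1 (leptotene/zygotene) and 29.3 and 48.5 (pachytene) (log2 change -1.37 ± 0.25, edgeR adjusted p = 0.0005). Its partner Dgcr8 fell by 0.84 ± 0.15 (adjusted p = 0.000469).
Dicer1, which makes the second cut, had 80.3 to 154 CPM in testis and 22.9, 8.42, 27.1 and 7.85 in spermatocytes (-3.07 ± 0.41, edgeR adjusted p = 4.93e-05). Its 2 binding partners went opposite ways: Tarbp2 rose from 7.40 to 11.6 CPM in testis to 64.7 to 101 in spermatocytes (3.19 ± 0.18, adjusted p = 9.64e-08), and Prkra fell by 1.97 ± 0.17 (adjusted p = 2.15e-06). None of the testis and spermatocyte values overlapped for these 3 genes, in a comparison where 85.3% of all genes were called. The share of all genes without overlap was not counted.
Of the Argonaute genes, Eif2c1 fell by 3.09 ± 0.36 and Eif2c2 by 1.85 ± 0.44 (edgeR adjusted p = 1.76e-05 and 0.00287), Eif2c4 rose by 2.83 ± 0.18 (adjusted p = 2.23e-07), and Eif2c3 changed by -0.62 ± 0.48 without a call (adjusted p = 0.247). The export genes Xpo5 and Ran rose by 0.79 ± 0.24 and 2.43 ± 0.19 (adjusted p = 0.01 and 8.22e-07), the first call being lost without each of 4 libraries in turn. Of the Drosha-associated helicases, Ddx5 rose by 1.47 ± 0.19 and Ddx17 fell by 1.21 ± 0.18 (adjusted p = 3.75e-05 and 0.000136). Between leptotene/zygotene and pachytene 1 gene was called, beside 22.2% of all genes (9.03% higher, 13.2% lower): Eif2c4 rose from 45.7 and 28.0 to 134 and 112 CPM (1.76 ± 0.28, adjusted p = 0.00323). It was not called when only these stages were fitted, and 3 genes were called without either day 3 library.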

How the data were processed

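Small RNA and RNA from testis and purified spermatocytes of wild-type mice were sequenced from TruSeq libraries, per the labels' protocols, which also state that fractions were judged by microscopy. The authors deposited raw counts, unscaled, in both tables: 1 row per seed of 7 bases, and 1 row per gene symbol. The mm9 build, HTSeq 0.6.1, edgeR 3.6.8, Bowtie 0.12.7 and BWA 0.7.8 are listed in the submitters' processing notes, with no role for each. How a read was given its seed is not given in the sources used here. Seeds were matched to bases 2 to 8 of RefSeq mature miRNAs (GRCm38.p6). Among the RNA rows, 5 HTSeq categories, holding 44.7% to 64.5% of reads, were left out of 23366 genes, leaving 3597360 to 22181395 counts per library.

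Ratios, rows and genes were tested with edgeR 4.0.16 (quasi-likelihood, two-sided, Benjamini-Hochberg, threshold 0.05) in R 4.3.3, all 10 libraries of an assay sharing 1 dispersion fit with 5 residual degrees of freedom. Rows and genes passed filterByExpr with a minimum count of 10 and were scaled by TMM. The ratio fit had a coefficient per library and per stage. limma 3.58.1 (log2 ratios, pseudocount 0.5) and DESeq2 1.42.0 were alternatives. Scripts were tested on simulated data. Replicates of a stage differed beyond sampling noise, so none was merged. P-values measure the spread between these libraries.

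The members, lists and tests were chosen with earlier results of these data known. Named were the 20 members with most counts, ratios of at least 10 per 100, the 6 largest called changes per comparison and the listed genes. Of 42 pairs so chosen, 5 are not reported here by name. Further called pairs named were chosen after their values were seen.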

Additional observations from a re-analysis of the deposited data

How the results depend on the processing

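Counts of called members are given here. For the ratio from day 1 to day 7 (15), limma gave 2, a fit of only those stages 45, and leaving out single libraries 0 to 26. For pachytene against leptotene/zygotene (3), limma gave 0, a minimum of 10 counts for the lower row 5, and leave-one-out fits 0 to 4. For spermatocytes against testis (46) every alternative stayed within 1.5 times (37 to 48 in leave-one-out fits), although limma gave 64. For row levels, day 1 to day 7 (22) gave 60 with only those stages, 42 by DESeq2 (13 higher, 29 lower) and 0 to 36 in leave-one-out fits. Pachytene against leptotene/zygotene (1) gave 5 by DESeq2, 3 with no filter and 0 to 1 in leave-one-out fits, and spermatocytes against testis (94) 85 to 104. For the processing genes, day 1 to day 7 (0) gave 7 with only those stages, and pachytene against leptotene/zygotene (1) gave 0 with only those stages, 2 by DESeq2 and 1 to 3 in leave-one-out fits. Spermatocytes against testis (12) gave 11 to 12. The fit of only the stages compared is the same as the reported fit for spermatocytes against testis. Restricting to parents of at least 30 counts in every library, chosen after seeing the data, left 103 member pairs with 12, 37 and 2 calls in the order day 7, spermatocytes, pachytene. When 1 library of a stage is left out, the other is assumed to vary like the other groups.

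The labels do not say that a replicate number marks shared animals. Replicate differences correlated between stages at -0.132 to 0.159 (rows), -0.125 to 0.24 (ratios) and -0.108 to 0.64 (genes), the highest value of each being that of leptotene/zygotene with pachytene. With the replicate number as a block, calls in the same order were 11, 44 and 0 for ratios, so that none of the 3 calls between pachytene and leptotene/zygotene was made, 16, 95 and 1 for rows, and 0, 12 and 1 for genes.

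Of 1125 refits of 77 single calls and genes, 974 kept direction and side of the threshold, 150 lost the call and 1 reversed: CAGCAGC beside ACAGCAG in spermatocytes, from -2.13 without leptotene/zygotene replicate 1 to 2.66 without leptotene/zygotene replicate 2. Ratios over a parent of a few counts in the shallow spermatocyte libraries have a wide counting error.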
